A study of Arabidopsis thaliana with 6 samples.

Results

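The genes described are those of the organelle genome block of the Affymetrix ATH1 array, chosen by number alone: a run of 150 consecutive probe set numbers, of 22746 probe sets on the array without controls. Roots of Arabidopsis thaliana seedlings were compared between 35S::RSL4, rsl4-1 and Col-0 plants, with 2 arrays per genotype and 6 in all. The transcription factor RSL4, of the basic helix-loop-helix family, promotes root hair growth. In 35S::RSL4 it is placed behind the 35S promoter of cauliflower mosaic virus, which drives strong expression in most plant tissues. The rsl4-1 line is labelled as a T-DNA knock-out in the Col-0 background, and Col-0 is the wild-type control. All 3 genotypes were grown on vertical plates with sucrose in continuous light and taken at growth stage 3.20. The labels enter a knock-out for 35S::RSL4 as well, so genotypes were taken from the sample titles. Whether the 2 samples of each genotype came from separately grown plants is not stated, so the p-values cover the spread between those samples alone, and that spread may be technical.

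Of the 150 probe sets, 69 were annotated to 1 plastid gene, 8 to a plastid gene with a repeated entry in the annotation and 12 to 1 mitochondrial gene. Another 1 named several genes, 45 were not listed in the annotation used, and 15 were annotated to nuclear genes of chromosome 2. By annotation those 15 go against the block's name: 5 carried AT2G07 gene numbers and 10 carried AT2G26 gene numbers. Whether their probes also match organelle RNA was not examined. Plastid and mitochondrial genes are therefore described by their own entries, and the other probe sets apart from them.

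The plastid genome encodes part of the photosynthetic apparatus and part of the machinery that expresses it: ribosomal proteins, ribosomal RNAs and the core of a bacterial-type RNA polymerase. The other subunits, and a phage-type RNA polymerase that also transcribes plastid genes, are encoded in the nucleus and imported. Roots hold mostly non-green plastids, which keep the same genome but build little photosynthetic apparatus. The mitochondrial genome encodes subunits of the respiratory chain and of cytochrome c maturation. RNA here was labelled from the 3′ end, a method that primes on poly(A) tails. Most organelle transcripts lack stable tails, and in plastids a tail marks RNA for decay, so a signal stands for the labelled RNA of a gene and not for all of its RNA.

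Values are MAS5 signals in scaled units. A probe set was tested where its signal lay above its own array's 40th percentile (20.3 to 22.4 signal units) on 2 or more of the 6 arrays. This gave 14170 tested probe sets. The test was limma's, on log2 signals with Benjamini-Hochberg adjustment over all of them, and a gene is said to have risen or fallen where its adjusted p was below 0.05. Across the tested probe sets (not independent of each other) the correlation was 0.982 to 0.986 within a genotype and 0.957 to 0.972 between genotypes. None of the probe sets with a listed gene was annotated to RSL4, and 8730 probe sets of the array had no listed gene. The level of RSL4 was therefore not analysed here, and the genotype labels were not checked through it. The root hair expansin gene EXPA7 had signals of 275 and 301 in 35S::RSL4, 72.8 and 59.8 in rsl4-1, and 99.4 and 114 in Col-0. It was thus highest on both 35S::RSL4 arrays and lowest on both rsl4-1 arrays.

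Many organelle genes were dim. Of the 69 plastid genes, 27 were above the percentile on all 6 arrays, 33 on no array, and 34 were tested. Of the 12 mitochondrial genes, 3 were above it on all 6 arrays and 9 on no array. Over all 150 probe sets, 61 were tested and 86 were above the percentile on no array. Dim genes included psbA, which encodes the D1 protein of photosystem II and had 3.75 and 1.07 signal units in 35S::RSL4, 4.08 and 8.87 in rsl4-1 and 10.1 and 8.12 in Col-0. Dim genes have no reliable order between genotypes, so the counts that follow are of tested genes and do not stand for all members.

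Some plastid genes fell relative to Col-0, 3 of them (rpoA, rps4 and rpl33) in both lines. In rsl4-1, 3 of the 34 tested plastid genes fell, none rose and 31 did not pass. In 35S::RSL4, 6 of 34 fell (the same 3 with rpl32, psbZ and psbL), none rose and 28 did not pass. Over all tested probe sets, 3.81% passed in rsl4-1 versus Col-0, with 1.67% higher and 2.15% lower. In 35S::RSL4 versus Col-0, 6.27% passed, with 3.39% higher and 2.88% lower. Both comparisons use the same 2 Col-0 arrays, so a gene that was high on those arrays is lower in both lines at once. Some of these calls were lost when 1 array of the genotypes compared was left out, as given below for each gene. Leaving out such an array also lowered the number of calls over all tested probe sets. In rsl4-1, the plastid genes below 0 were then 27 of 34 (rsl4-1 replicate 1) and 28 of 33 (rsl4-1 replicate 2). They were 29 of 33 (Col-0 replicate 1) and 29 of 34 (Col-0 replicate 2). In 35S::RSL4 they were 30 of 32 (35S::RSL4 replicate 1) and 28 of 34 (35S::RSL4 replicate 2). Without Col-0 replicate 1 they were 32 of 33, and without Col-0 replicate 2 they were 29 of 34.

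Most of the other plastid genes also had negative values. At an unadjusted p below 0.05 stood 10 of the 34 in rsl4-1 and 14 of the 34 in 35S::RSL4, against 2274 and 3218 of the 14170 tested probe sets. In rsl4-1 versus Col-0, 32 of 34 (94.1%) had a log2 change below 0, with a median of -0.25, and over all tested probe sets 54.7% were below 0 with a median of -0.03. In 35S::RSL4 versus Col-0, 33 of 34 (97.1%) were below 0, with a median of -0.37, and over all tested probe sets 59.4% were below 0 with a median of -0.06. With each array centred on its median, 32 of 34 in rsl4-1 and 29 of 34 in 35S::RSL4 were below 0. These genes share 1 genome and neighbouring genes share transcripts, so they are not independent of each other. Over all 69 plastid genes without the filter, the medians were -0.23 in rsl4-1 and -0.45 in 35S::RSL4, against 0.01 and -0.05 over all probe sets. These medians include 35 plastid genes too dim to test, which have no reliable order between genotypes.

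By array, the median log2 signal of the 34 plastid genes was 7.02 and 6.65 in 35S::RSL4, 6.78 and 6.85 in rsl4-1, and 7.25 and 7.31 in Col-0. Both Col-0 arrays were above every array of the 2 lines, and the second 35S::RSL4 array was the lowest. Without that array the median change in 35S::RSL4 was -0.16 and not -0.37. In bulk roots, fewer cells or plastids of a kind and less RNA in each cannot be told apart.

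**Figure D1:**
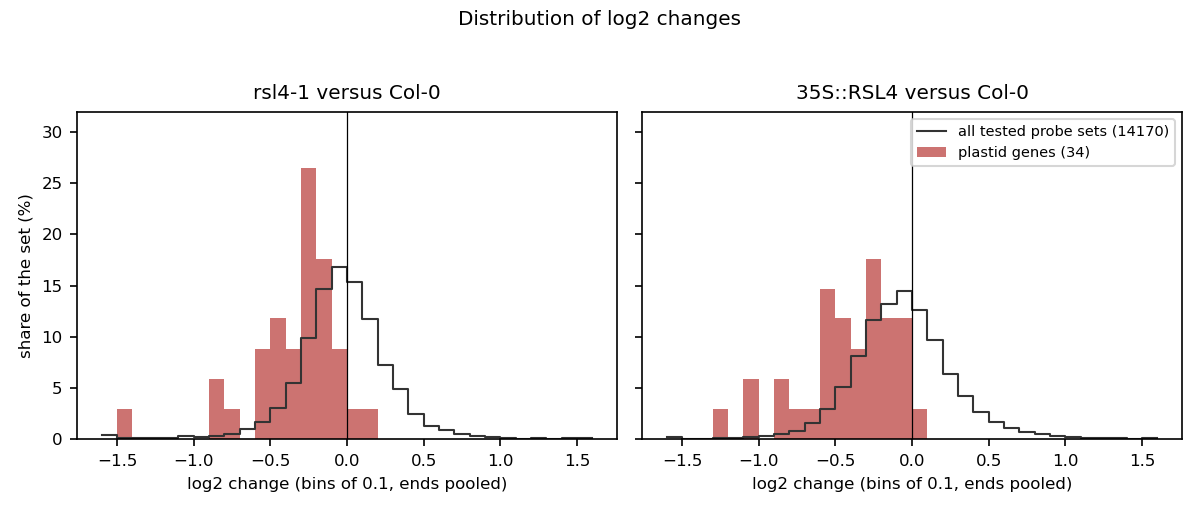
Distribution of log2 changes in rsl4-1 versus Col-0 (left) and 35S::RSL4 versus Col-0 (right), as the share of each set in percent per bin of log2 change: bars are the 34 tested plastid genes and the line is all 14170 tested probe sets. In both panels nearly all plastid genes lie below 0, with medians of -0.25 and -0.37, while the line is centred near 0.

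The 1 tested gene of the plastid RNA polymerase, rpoA, fell in both lines. It encodes the alpha subunit of the bacterial-type enzyme. Its signals were 149.0 and 129.3 in 35S::RSL4, 148.2 and 174.6 in rsl4-1, and 301.5 and 277.9 in Col-0. All 4 arrays of the lines were below both Col-0 arrays, and the arrays of the 2 lines overlapped. rpoA fell 2.09-fold in 35S::RSL4, where its mean was 139 ± 14.0, against 290 ± 16.7 in Col-0 (SD, n = 2 each; log2 change -1.06, SE 0.15, limma adjusted p = 0.00037). In rsl4-1 it fell 1.80-fold to a mean of 161 ± 18.6 (log2 change -0.85, SE 0.15, limma adjusted p = 0.0025). The 35S::RSL4 call held in all 14 alternative settings, with adjusted p of 0.00025 to 0.012. The rsl4-1 call was lost without rsl4-1 replicate 1 (log2 change -0.73, limma adjusted p = 0.057) and held in the other 13. The genes of the other plastid-encoded subunits, rpoB, rpoC1 and rpoC2, were not above the percentile on any array, so rpoA stands for 1 of 4 genes of the enzyme.

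**Figure D2:**
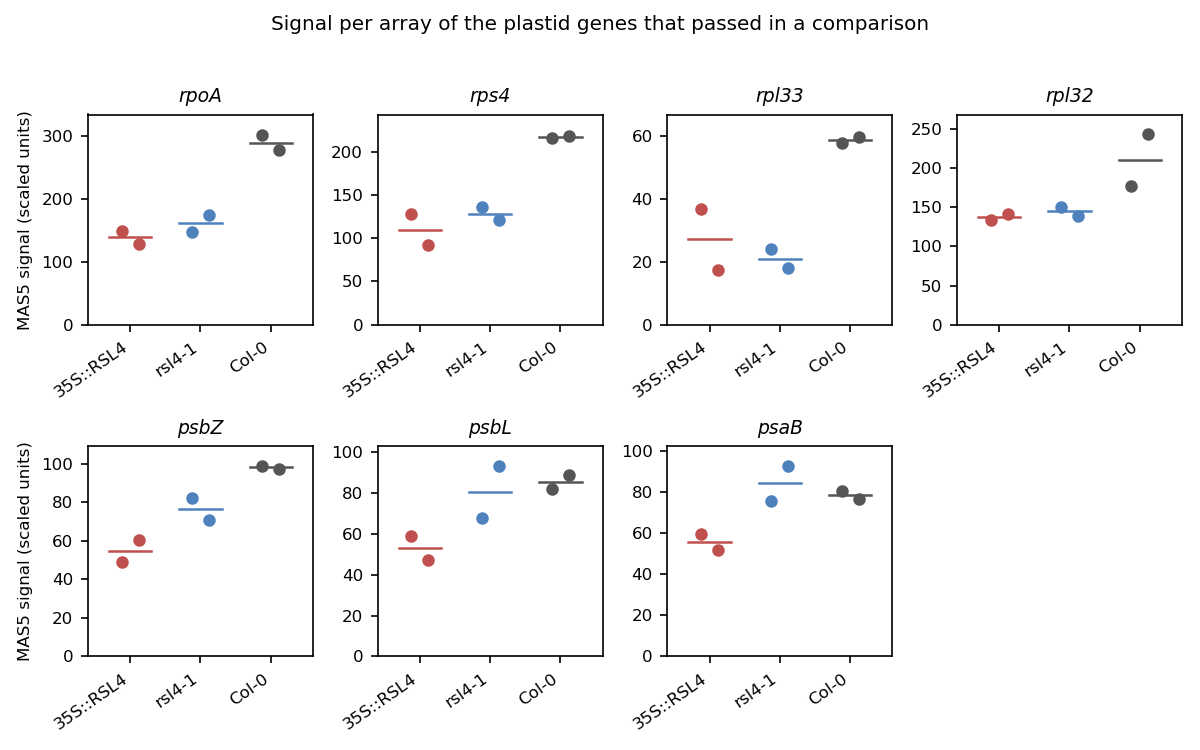
MAS5 signal (scaled units, linear axis from 0) of the 7 plastid genes that passed in any comparison, by genotype; points are arrays and lines are means of 2 arrays. For rpoA, rps4, rpl33, rpl32 and psbZ both lines lie below both Col-0 arrays, while for psbL and psaB the 35S::RSL4 arrays lie below all others.

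Among single-entry genes for plastid ribosomal proteins, 11 of 15 were tested, 6 of the large subunit and 5 of the small. In 35S::RSL4, 2 large-subunit genes (rpl33 and rpl32) and 1 small-subunit gene (rps4) fell, and in rsl4-1 1 of each fell (rpl33 and rps4). All 11 had negative log2 changes in both lines. The medians were -0.22 in 35S::RSL4 and -0.43 in rsl4-1 for the large subunit, and -0.46 in 35S::RSL4 and -0.21 in rsl4-1 for the small subunit. These counts and medians leave out 4 tested probe sets with a repeated entry for a ribosomal protein gene (rpl2, rpl23, rps7 and rps12). Those lay nearer to 0, at -0.21 for rpl2, 0.03 for rpl23, -0.17 for rps7 and -0.11 for rps12 in 35S::RSL4. In rsl4-1 they lay at -0.04 for rpl2, -0.02 for rpl23, -0.08 for rps7 and -0.28 for rps12, and none passed in either line.

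rps4 encodes a small-subunit protein that binds ribosomal RNA. Its signals were 128.2 and 91.6 in 35S::RSL4, 135.7 and 121.1 in rsl4-1, and 215.3 and 218.4 in Col-0. The 4 arrays of the lines were again all below Col-0. It fell 2.00-fold in 35S::RSL4 (log2 change -1.0, SE 0.16, limma adjusted p = 0.0017) and passed in all 14 alternatives (adjusted p 0.00095 to 0.032). In rsl4-1 it fell 1.69-fold (log2 change -0.76, SE 0.16, limma adjusted p = 0.014). That call was lost without either rsl4-1 array and without either Col-0 array. It was also lost without the filter and without the intensity trend (limma adjusted p = 0.052 and 0.063).

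rpl33 encodes a large-subunit protein and had the largest change of the 34 genes in both comparisons with Col-0. Its signals were 36.7 and 17.6 in 35S::RSL4, 24.1 and 18.0 in rsl4-1, and 57.8 and 59.8 in Col-0. In each line 1 of 2 arrays was above the percentile, so the low values lie near the dim range. rpl33 fell 2.32-fold in 35S::RSL4 (log2 change -1.21, SE 0.29, limma adjusted p = 0.019) and 2.82-fold in rsl4-1 (log2 change -1.50, SE 0.29, limma adjusted p = 0.006). Without 35S::RSL4 replicate 2 the 35S::RSL4 change was -0.68 (adjusted p = 0.18), and without Col-0 replicate 1 or 2 its adjusted p was 0.13 and 0.11. The rsl4-1 call was lost without rsl4-1 replicate 2 and without Col-0 replicate 2. Without the filter both calls were lost (limma adjusted p = 0.099 in 35S::RSL4 and 0.067 in rsl4-1). Without the intensity trend the 35S::RSL4 call was lost (limma adjusted p = 0.055).

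rpl32, another large-subunit gene, had signals of 133.8 and 142.0 in 35S::RSL4, 151.0 and 139.4 in rsl4-1, and 177.3 and 243.1 in Col-0. Its 2 Col-0 arrays were further apart than those of either line. It fell 1.51-fold in 35S::RSL4 (log2 change -0.59, SE 0.16, limma adjusted p = 0.038) and was at -0.52 in rsl4-1 (limma adjusted p = 0.093). The call in 35S::RSL4 held in 5 of 14 alternatives. It was lost without either 35S::RSL4 array (adjusted p of 0.13 without replicate 1 and 0.11 without replicate 2), without either rsl4-1 array (adjusted p of 0.055 without replicate 1 and 0.056 without replicate 2) and without Col-0 replicate 2 (log2 change -0.36, adjusted p = 0.33).

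Members not called included rpl36 and rpl14, which lie in the same stretch of the plastid genome as rpoA. Their log2 changes were -0.23 and -0.20 in 35S::RSL4 and -0.57 and -0.35 in rsl4-1. None of these 4 values passed. rps18, the annotated neighbour of rpl33, was above the percentile on 2 of 6 arrays and had log2 changes of -0.51 in 35S::RSL4 and -0.21 in rsl4-1. The rpl33 fall is thus not matched by a call of its neighbour, which was near the dim range.

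Photosystem II genes were the best measured class of the photosynthetic apparatus, with 10 of 15 tested. In 35S::RSL4 2 fell, psbZ and psbL, and all 10 were negative with a median of -0.44. In rsl4-1 none fell, 9 were negative and the median was -0.30. Both genes encode small subunits of the photosystem.

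psbZ had signals of 48.8 and 60.3 in 35S::RSL4, 82.4 and 70.7 in rsl4-1, and 98.7 and 97.5 in Col-0. The genotypes did not overlap, with rsl4-1 between the others. The fall in 35S::RSL4 was 1.81-fold (log2 change -0.85, SE 0.17, limma adjusted p = 0.0059), while rsl4-1 was at -0.36 (limma adjusted p = 0.3). Between the lines the difference was -0.49 (35S::RSL4 minus rsl4-1, 95% interval -0.85 to -0.14), with a limma adjusted p of 0.1. The 35S::RSL4 call was lost without 35S::RSL4 replicate 1 (adjusted p = 0.055) and without Col-0 replicate 1 (adjusted p = 0.07).

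psbL had signals of 59.2 and 47.4 in 35S::RSL4, 67.9 and 93.2 in rsl4-1, and 82.3 and 89.1 in Col-0. Both 35S::RSL4 arrays were the lowest, and rsl4-1 overlapped with Col-0. The fall was 1.62-fold in 35S::RSL4 (log2 change -0.69, SE 0.18, limma adjusted p = 0.035), against -0.11 in rsl4-1 (limma adjusted p = 0.84). It held in 7 of 14 alternatives and was lost without 35S::RSL4 replicate 2 (adjusted p = 0.21) and without either Col-0 array (adjusted p of 0.15 without replicate 1 and 0.17 without replicate 2).

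psbL lies in a cluster with psbE, psbF and psbJ, of which psbJ and psbF are its annotated neighbours. In 35S::RSL4 their log2 changes were -0.09 for psbE, -0.29 for psbF and -0.39 for psbJ, and none passed. The value of psbL was the lowest of the 4. psbK and psbI were near the threshold in 35S::RSL4, with log2 changes of -0.50 and -0.58 (limma adjusted p = 0.054 and 0.07).

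**Figure D3:**
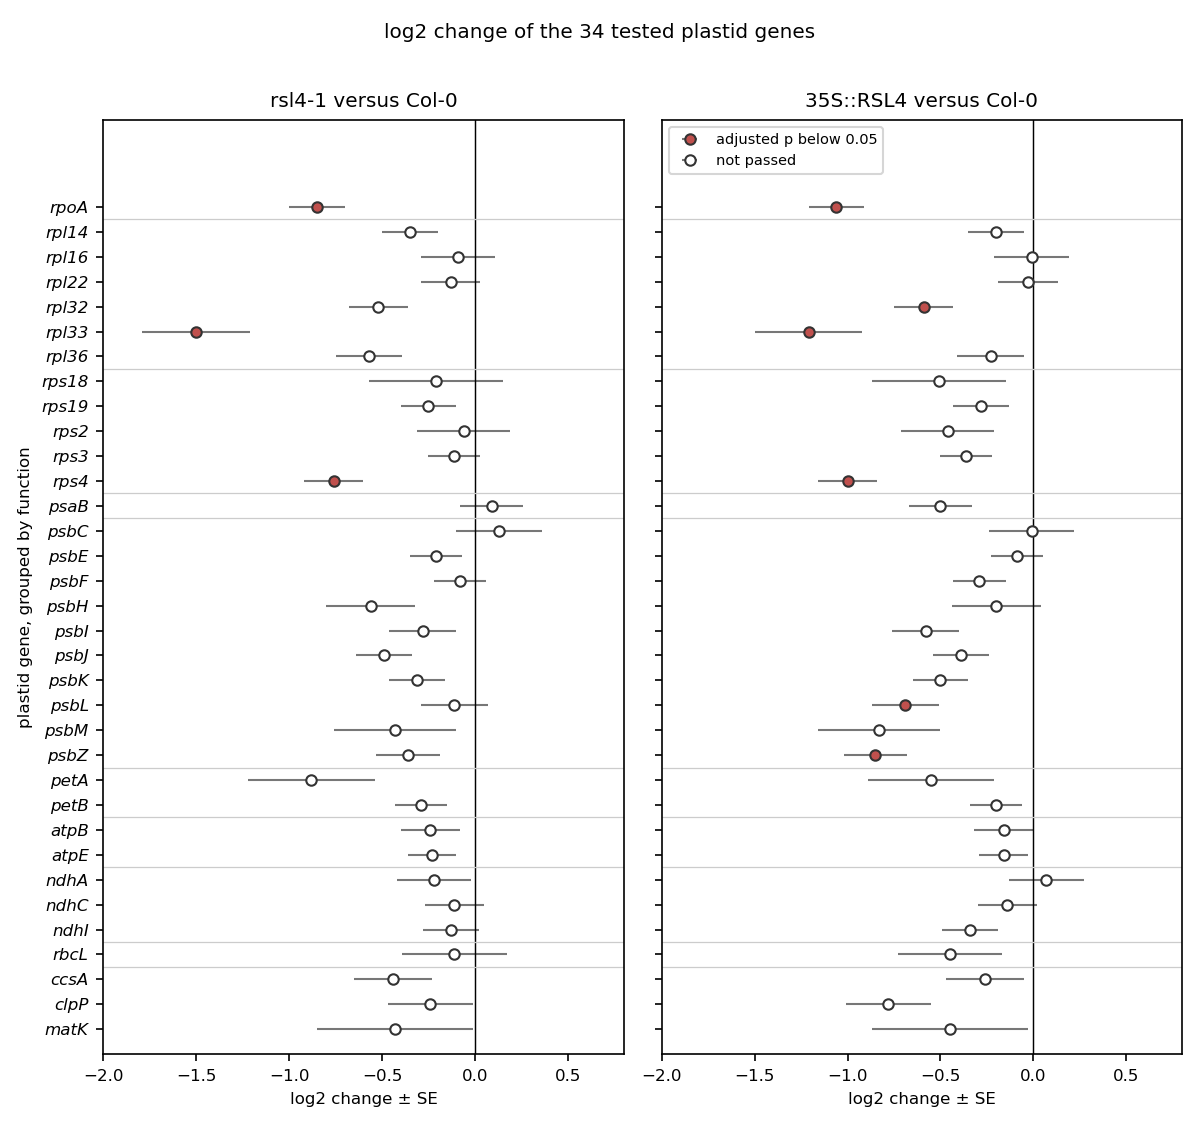
log2 change with its standard error (horizontal bars) of the 34 tested plastid genes, grouped by function, in rsl4-1 versus Col-0 (left) and 35S::RSL4 versus Col-0 (right); filled points passed the adjusted p threshold of 0.05. Filled points are rpoA, rpl33 and rps4 on the left, joined by rpl32, psbL and psbZ on the right, all below 0.

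In photosystem I, 1 of 7 genes was tested. psaB encodes one of the large reaction-centre proteins and had signals of 59.6 and 52.0 in 35S::RSL4, 75.8 and 92.9 in rsl4-1, and 80.4 and 76.9 in Col-0. The 35S::RSL4 arrays were below all others, and rsl4-1 overlapped with Col-0. It was the 1 plastid gene of 34 that passed between the lines, 1.51-fold lower in 35S::RSL4 than in rsl4-1 (log2 change -0.59, SE 0.17, limma adjusted p = 0.049). In this comparison 5.46% of all tested probe sets passed, with 3.19% higher and 2.27% lower. The psaB call lay at the threshold: it held in 1 of 14 alternatives and in none that left out an array, where the adjusted p was 0.09 and 0.2 without 35S::RSL4 replicate 1 or 2, 0.063 and 0.36 without rsl4-1 replicate 1 or 2, and 0.074 and 0.073 without Col-0 replicate 1 or 2. Against Col-0, psaB was at -0.50 in 35S::RSL4 (limma adjusted p = 0.087) and 0.09 in rsl4-1 (limma adjusted p = 0.84).

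Between the lines the plastid genes as a set were near the array's background. Of 34, 20 (58.8%) had a lower value in 35S::RSL4 than in rsl4-1, with a median of -0.05, against 56.7% and -0.04 over all tested probe sets. For rpoA the difference was -0.21 (35S::RSL4 minus rsl4-1, 95% interval -0.52 to 0.10) and for rps4 it was -0.24 (95% interval -0.59 to 0.11). Neither passed, and both intervals leave room for a difference of either sign.

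In the other plastid classes no gene passed limma's test. In the cytochrome b6f complex 2 of 6 genes were tested. petA, for cytochrome f, had signals of 21.5 and 10.9 in 35S::RSL4, 12.5 and 11.9 in rsl4-1, and 22.9 and 22.0 in Col-0. It was above the percentile on 2 of 6 arrays, 1 of 35S::RSL4 and 1 of Col-0. Its log2 change in rsl4-1 was -0.88 (limma adjusted p = 0.19). As both rsl4-1 arrays were dim, the lower bound of that fold was 1.03. petB, for cytochrome b6, was brighter and at -0.20 in 35S::RSL4 and -0.29 in rsl4-1.

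In the plastid ATP synthase 2 of 6 genes were tested. atpE, for the epsilon subunit, had signals of 1291 and 1050 in 35S::RSL4, 1132 and 1082 in rsl4-1, and 1413 and 1194 in Col-0, so that the 35S::RSL4 and Col-0 arrays overlapped. Its log2 changes were -0.16 in 35S::RSL4 and -0.23 in rsl4-1 (limma adjusted p = 0.49 and 0.42). atpB, for the beta subunit, was at -0.16 and -0.24.

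Of the 10 genes for the plastid NDH complex, which carries cyclic electron flow, 3 were tested. ndhI was at -0.34 in 35S::RSL4 (limma adjusted p = 0.18) and -0.13 in rsl4-1, and ndhA, at 0.07 in 35S::RSL4, was the 1 plastid gene of 34 above 0 in that comparison. rbcL, for the large subunit of Rubisco, had signals of 39.4 and 18.4 in 35S::RSL4, 32.7 and 35.7 in rsl4-1, and 39.4 and 34.4 in Col-0. The spread of its 35S::RSL4 arrays exceeded the difference between genotypes, and its value of -0.45 in 35S::RSL4 did not pass (limma adjusted p = 0.36).

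clpP, for the proteolytic subunit of the plastid Clp protease, came nearest to the threshold of the genes not called. Its signals were 170.0 and 134.9 in 35S::RSL4, 168.1 and 287.9 in rsl4-1, and 322.5 and 210.7 in Col-0. Both 35S::RSL4 arrays were below both Col-0 arrays, and the rsl4-1 arrays spanned the gap. The log2 change in 35S::RSL4 was -0.78 (SE 0.23, limma adjusted p = 0.0501), and it passed in 7 of 14 alternatives.

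The 8 probe sets of plastid genes with a repeated entry, which match genes of the inverted repeat or trans-spliced rps12 and cannot be assigned to 1 copy, had 5 tested, none called and none with an unadjusted p below 0.05. Their medians were -0.17 in 35S::RSL4 and -0.08 in rsl4-1, nearer to the array's medians of -0.06 and -0.03 than those of the single-entry genes.

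No mitochondrial gene passed limma's test in any comparison; at an unadjusted p below 0.05 stood 2 of the 3 tested in 35S::RSL4 versus Col-0 and 0 of 3 in the others. The 3 tested had negative values in every comparison, with medians of -0.42 in 35S::RSL4 versus Col-0, -0.38 in rsl4-1 versus Col-0 and -0.19 in 35S::RSL4 versus rsl4-1. Without 35S::RSL4 replicate 2 the medians were -0.27 in 35S::RSL4 versus Col-0 and 0.11, of the other sign, in 35S::RSL4 versus rsl4-1. Between the lines the median was -0.01 without rsl4-1 replicate 2, -0.29 without rsl4-1 replicate 1 and -0.32 without 35S::RSL4 replicate 1. With 3 of 12 genes measured, the data say little about the mitochondrial genome as a whole.

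nad4 encodes a subunit of respiratory complex I. Its signals were 45.7 and 24.3 in 35S::RSL4, 43.8 and 40.8 in rsl4-1, and 59.5 and 53.2 in Col-0. All 4 arrays of the lines were below both Col-0 arrays, and its log2 change was -0.76 in 35S::RSL4 (SE 0.24, limma adjusted p = 0.076) and -0.41 in rsl4-1 (limma adjusted p = 0.44). Without 35S::RSL4 replicate 1 the 35S::RSL4 value was -1.21 and passed (adjusted p = 0.011), since the remaining array was the lower one.

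ccmFC and ccmFN1 act in cytochrome c maturation. ccmFC had signals of 44.8 and 36.4 in 35S::RSL4, 40.1 and 42.8 in rsl4-1, and 58.7 and 49.5 in Col-0, with both lines below Col-0. Its log2 changes were -0.42 in 35S::RSL4 and -0.38 in rsl4-1 (limma adjusted p = 0.21 and 0.35). ccmFN1 was at -0.32 and -0.14. The complex IV gene cox2 was not above the percentile on any array.

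Nuclear genes of the same processes were examined through lists. In these lists, a gene counts as measured where a probe set was annotated to it alone. Probe sets with no listed gene (8730) or with several (503) were not matched to the lists, so other listed genes may still be on the array. Of 12 nuclear respiratory chain genes listed, 5 were measured, by 6 probe sets of which 5 were tested, and none passed limma's test in any comparison, nor had an unadjusted p below 0.05. The log2 changes lay between -0.25 and 0.07 in 35S::RSL4 and between -0.32 and 0.15 in rsl4-1. Of 7 mitochondrial stress response genes, 3 were measured and 2 tested, with none called; NDB2, an alternative NAD(P)H dehydrogenase, was at 0.38 in 35S::RSL4 (limma adjusted p = 0.11). Of 3 organelle RNA decay genes 1 was measured and did not pass, and of 3 phage-type organelle RNA polymerases 1 was measured and too dim to test. The 6 sigma factors and 12 RNA polymerase associated proteins, nuclear partners of the enzyme that contains the rpoA product, were not analysed here.

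The measured markers of green shoot tissue also had negative log2 changes against Col-0. Of 37 nuclear photosynthesis genes listed, 6 had a probe set annotated to them alone, and the others were not examined. All 6 were tested and were above the percentile on all 6 arrays. LHCB4.2 was near the dim range in 35S::RSL4, at 25.8 and 22.9. Their summed signal was 556.4 to 568.7 in 35S::RSL4, 589.9 to 599.1 in rsl4-1 and 723.4 to 790.8 in Col-0, with no overlap between genotypes. In 35S::RSL4, 3 of 6 fell (LHCB4.1, LHCB4.2 and PSAE-1) and 6 were negative, with a median of -0.58. In rsl4-1, 2 of 6 fell (LHCB4.1 and PSAE-1) and 6 were negative, with a median of -0.41. Over all tested probe sets, 2.88% were lower in 35S::RSL4 (median -0.06) and 2.15% in rsl4-1 (median -0.03). With median centring 5 of the 6 markers were negative in each line, and without the intensity trend none of them fell in rsl4-1. None passed between the lines, where the median was -0.07 and 1 had an unadjusted p below 0.05. Without single arrays of the genotypes compared, fewer of the 6 fell in each line, and fewer calls were made over all tested probe sets. All 6 stayed negative in 35S::RSL4 in each of these. In rsl4-1, 5 were negative without rsl4-1 replicate 1 or Col-0 replicate 1, and 6 without rsl4-1 replicate 2 or Col-0 replicate 2. The part of green tissue in the plastid results was not tested.

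PSAE-1 encodes a subunit of photosystem I. Its signals were 47.9 and 42.5 in 35S::RSL4, 58.5 and 43.2 in rsl4-1, and 78.0 and 93.9 in Col-0. Both lines lay below Col-0. The log2 changes were -0.92 in 35S::RSL4 (SE 0.19, limma adjusted p = 0.0081) and -0.77 in rsl4-1 (SE 0.19, limma adjusted p = 0.031). The first was lost without 35S::RSL4 replicate 2 or Col-0 replicate 2, and the second without rsl4-1 replicate 2 or either Col-0 array. The second was also lost without the filter and without the intensity trend (limma adjusted p = 0.11 and 0.065).

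LHCB4.2, a light-harvesting protein gene, had signals of 25.8 and 22.9 in 35S::RSL4, 39.4 and 29.8 in rsl4-1, and 43.1 and 41.0 in Col-0. It fell in 35S::RSL4 (log2 change -0.79, SE 0.22, limma adjusted p = 0.04) but lost that call without any 1 of the 4 arrays compared. The call was also lost under quantile normalization, under median centring and without the filter (limma adjusted p = 0.083, 0.066 and 0.12). ATPC1, for the gamma subunit of the plastid ATP synthase, was at -0.11 in 35S::RSL4 and -0.01 in rsl4-1, so the list did not move as one. Of 7 root markers 3 were measured, with a summed signal of 4921 to 5025 in 35S::RSL4, 4704 to 5300 in rsl4-1 and 4102 to 4850 in Col-0, and all 3 were above the percentile on all 6 arrays. Most of that sum was the signal of PYK10, a root beta-glucosidase gene, which did not pass in any comparison. The root hair expansin genes EXPA7 and EXPA18 rose in 35S::RSL4 (log2 changes 1.44 and 0.79, limma adjusted p = 4.3e-05 and 0.0026) and fell in rsl4-1 (log2 changes -0.69 and -0.60, limma adjusted p = 0.017 and 0.02).

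**Figure D4:**
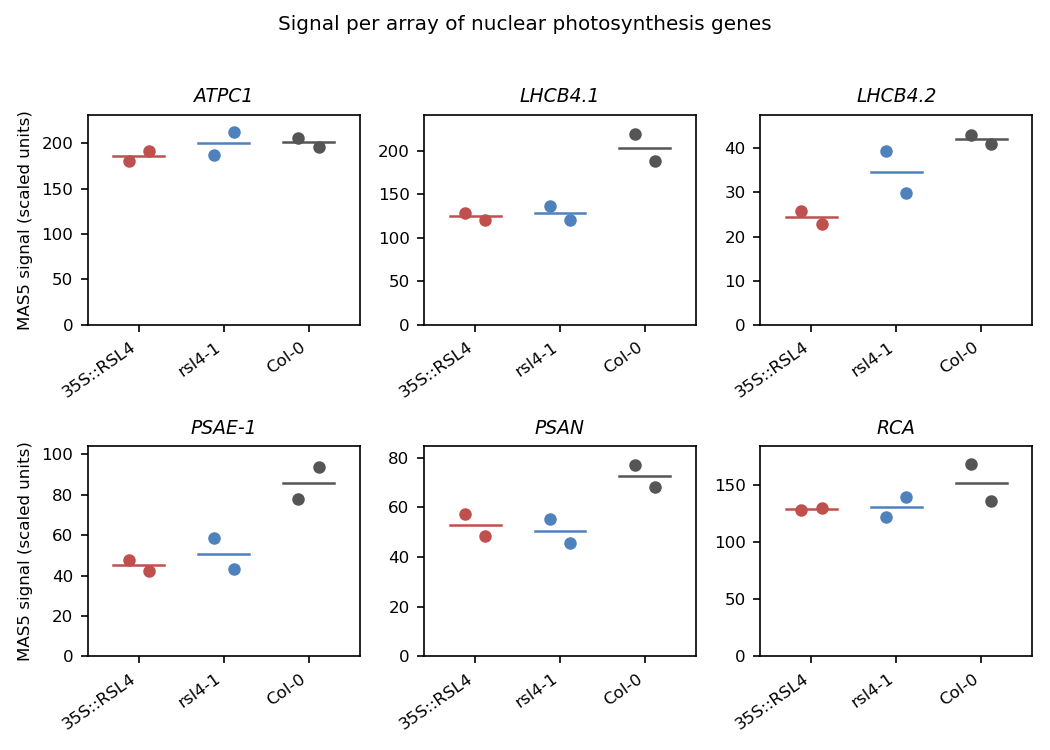
MAS5 signal (scaled units, linear axis from 0) of the 6 measured nuclear photosynthesis genes by genotype; points are arrays and lines are means of 2 arrays. LHCB4.1, LHCB4.2, PSAE-1 and PSAN are below both Col-0 arrays in both lines, while for ATPC1 and RCA the rsl4-1 arrays overlap with Col-0.

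The 15 nuclear genes that the number range takes in were few in the tested set, with 5 tested. Of these AT2G26500 and AR781 fell in both lines. The 1 tested with an AT2G07 number, AT2G07751, was at -0.53 in 35S::RSL4 and -0.19 in rsl4-1 (limma adjusted p = 0.22 and 0.78). AT2G26500 had signals of 87.2 and 86.6 in 35S::RSL4, 124.5 and 111.4 in rsl4-1, and 159.3 and 202.1 in Col-0. The 3 genotypes did not overlap, with 35S::RSL4 lowest. It fell 2.06-fold in 35S::RSL4 (log2 change -1.05, SE 0.16, limma adjusted p = 0.00072), in all 14 alternatives, and 1.52-fold in rsl4-1 (log2 change -0.61, SE 0.16, limma adjusted p = 0.039). The rsl4-1 call was lost without either rsl4-1 array and without either Col-0 array. It was also lost under median centring, without the filter and without the intensity trend (limma adjusted p = 0.053, 0.085 and 0.094).

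AR781 had signals of 64.0 and 79.4 in 35S::RSL4, 79.6 and 62.4 in rsl4-1, and 102.2 and 135.3 in Col-0. The lines overlapped and were both below Col-0, at log2 changes of -0.72 in 35S::RSL4 and -0.74 in rsl4-1 (SE 0.19 each, limma adjusted p = 0.03 and 0.034). The 35S::RSL4 call was lost without either 35S::RSL4 array and without either Col-0 array. In rsl4-1 the call was lost without either rsl4-1 array and without Col-0 replicate 2. Without the filter both calls were lost (limma adjusted p = 0.089 in 35S::RSL4 and 0.11 in rsl4-1), as they were without the intensity trend (0.075 and 0.094). Under quantile normalization and median centring the 35S::RSL4 call was lost too (limma adjusted p = 0.0504 and 0.054).

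Of the 45 probe sets without a listed gene, 13 were tested, and the 2 members of the block that rose were among them. The probe set 245036_at had signals of 45.6 and 53.1 in 35S::RSL4, 13.8 and 19.4 in rsl4-1, and 21.6 and 20.3 in Col-0, and was not above the percentile on any rsl4-1 or Col-0 array. It entered the tested set through its 2 35S::RSL4 arrays alone, so its calls are given as a description and support nothing further. It was at least 2.26-fold higher in 35S::RSL4 than in rsl4-1 (limma adjusted p = 0.00052) and at least 2.21-fold higher than in Col-0 (limma adjusted p = 0.0067). The second call was lost without the filter (adjusted p = 0.0502) and without either Col-0 array (adjusted p of 0.053 without replicate 1 and 0.055 without replicate 2), while the first held in the 12 alternatives that tested it.

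The probe set 245046_at had signals of 581.4 and 521.3 in 35S::RSL4, 518.2 and 529.4 in rsl4-1, and 387.2 and 401.0 in Col-0. Both lines were above Col-0, by a log2 change of 0.48 in 35S::RSL4 (SE 0.12, limma adjusted p = 0.03) and 0.41 in rsl4-1 (limma adjusted p = 0.082). The 35S::RSL4 call was lost without either 35S::RSL4 array and without either Col-0 array. It was also lost without the filter and without the intensity trend (limma adjusted p = 0.056 and 0.092). By number, 245036_at lies among the probe sets with AT2G26 gene numbers, and 245046_at between those and psbA. The genome of the 13 tested probe sets without a listed gene is not known here, and they may be mixed. Their median was 0.06 in 35S::RSL4 and -0.14 in rsl4-1. The plastid medians were -0.37 and -0.25, and the difference was not tested.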

How the data were processed

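The deposited values are linear intensity values (MAS5 signals); per the submitters' processing notes the authors used MAS5 and GCOS, whose versions are not given in the sources used here. Per the labels' protocols, RNA was taken with a Qiagen kit and biotin-labelled with a 3′ in vitro transcription kit. Each array's mean signal, trimmed of 2% at either end, was 100.01. The authors' scaling was therefore kept, and a change of total RNA cannot be seen. MAS5 is noisy for dim probe sets.

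Genes were named through the platform annotation. Plastid locus tags and nuclear gene numbers were matched to the RefSeq gene table of TAIR10.1, which was also used for neighbours; the gene numbers of the 12 mitochondrial genes are not in that table, and they were placed through a symbol or synonym that matched exactly 1 mitochondrial entry. No build is named with the values, so no coordinates are given.

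After leaving out 64 control probe sets and applying the filter, log2 signals of all 6 arrays entered 1 model in R 4.3.3 with limma 3.58.1 (lmFit, then a trended eBayes, 3 residual and 13.2 prior degrees of freedom). P-values are two-sided. With 2 arrays a group, exact permutation allows no p under 0.333 and was not used. Folds are the log2 changes turned back to a linear scale. Where both arrays of 1 genotype were below the percentile, the fold is a lower bound: the bright mean over the dim signals, each raised to its array's percentile if under it. The number of arrays limits the precision.

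Named were all members with an adjusted p below 0.05 in any comparison and, in each functional class without one, the tested member with the smallest p; other members named were chosen with their values known. Members, lists and classes were chosen with earlier results of these data known. The alternatives tried were median centring, quantile normalization, no filter, a filter on the mean signal, an offset of each array's 20th percentile, no intensity trend, a replicate block, only the 2 groups compared, and leaving out each array, with the remaining array of that genotype taken to vary as the other arrays do. They were applied to the called green shoot genes after seeing the data.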

Additional observations from a re-analysis of the deposited data

How the results depend on the processing

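Of 54 pairs of a named gene and a comparison, 17 were called. Of the 234 values that the alternatives gave for those 17, 159 stayed called, 75 lost the call and none changed sign. Of 507 values for the other pairs, 12 were called, and 17 had the other sign without passing. In rsl4-1 versus Col-0, the 5 members called became 1 without the filter and 2 without the intensity trend. Over all tested probe sets, the 540 called of 14170 became 265 of 22746 without the filter and 357 of 14170 without the trend. Leaving out an array of the genotypes compared lowered both numbers. In 35S::RSL4 versus Col-0, the 10 members called became 4 without the filter and 5 without the trend. Over all tested probe sets, the 888 called became 404 without the filter and 564 without the trend. Leaving out an array of the genotypes compared again lowered both numbers. In 35S::RSL4 versus rsl4-1, the 2 called became 1 under quantile normalization, median centring, no filter, the filter on the mean signal, no trend and only the 2 groups compared, and leaving out single arrays gave 0 to 3. The causes were not tested. With the replicate block, members called numbered 11 in 35S::RSL4 versus Col-0, 5 in rsl4-1 versus Col-0 and 1 in 35S::RSL4 versus rsl4-1. Over all tested probe sets, 802, 520 and 737 were called with the block, in the same order. Same-numbered arrays deviated together at correlations of 0.12, -0.19 and -0.08 in these comparisons. With 2 arrays per genotype, these values cannot show whether same-numbered samples share a batch. Median centring moved the median of all tested probe sets in 35S::RSL4 versus Col-0 by 0.11 on the log2 scale and gave 889 higher and 233 lower, or 79.2% higher against 54.1%; in rsl4-1 versus Col-0 the share was 55.3% against 43.7% and in 35S::RSL4 versus rsl4-1 70.7% against 58.4%. Over the alternatives that kept all arrays, the plastid median was -0.45 to -0.26 in 35S::RSL4 and -0.26 to -0.20 in rsl4-1 versus Col-0; without single arrays it was -0.43 to -0.16 and -0.33 to -0.25. Between the lines it was -0.14 to 0.07 over all of these. The mitochondrial median was -0.56 to -0.27 in 35S::RSL4 and -0.49 to -0.26 in rsl4-1 versus Col-0 without single arrays, and -0.32 to 0.11 between the lines. Genes that did not pass the filter, 35 of 69 plastid and 9 of 12 mitochondrial, were too dim to test.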

Other observations

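Some plastid genes differed more between arrays of 1 genotype than between genotypes. psbM, for a small photosystem II subunit, had signals of 516.7 and 902.5 in 35S::RSL4, 1491 and 541.0 in rsl4-1 and 1461 and 1002 in Col-0, so the 2 rsl4-1 arrays were 2.76-fold apart. matK, for a plastid intron maturase, had 41.1 and 14.8 in 35S::RSL4, 39.1 and 16.0 in rsl4-1 and 40.2 and 28.1 in Col-0, with the 2 35S::RSL4 arrays 2.77-fold apart. Neither gene passed in any comparison.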
